A study of Populus trichocarpa with 12 samples.

Results

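Of the 41335 gene identifiers counted in Populus trichocarpa (black cottonwood) wood-forming tissue, 18 were abundant in every library and kept nearly the same mean level through 7 days without water. They were chosen from the measured counts. CPM, counts per 1 M counts of a library, had to reach at least 100 in all 12 libraries, which left 561 genes. Of these, 18 had day means of log2(CPM + 1) that differed by at most 0.15 between each pair of the 3 days. On a linear scale 0.15 is a 1.11-fold difference. The steadiness of the 18 therefore follows from how they were picked, and their day-to-day differences are given below as a description, with no test.

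The tissue was stem differentiating xylem, the soft new wood scraped with a razor from debarked stems of trees grown for 3 months in a greenhouse. Day 0 is the watered control, 4 libraries from plants under full irrigation, whose soil held 74% water and whose xylem held 80.6%. The 4 day 5 libraries came from plants left unwatered for 5 days, called mild drought by the submitters, with soil at 33% and xylem at 75.3%. The 4 day 7 libraries came from plants left unwatered for 7 days, called severe drought, at 29% and 74.3%. The growth text, shared with transgenic lines, gives no genotype for these trees. Days without water may coincide with plant age and harvest day, which the labels used here do not give by library. Nothing in the labels says whether the 4 libraries of a day came from separate trees, so spreads between them may be partly technical.

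Differentiating xylem holds cells that have just left the vascular cambium, expand, lay down a thick wall of cellulose, xylan and lignin, and in fibres and vessels then die. Drought is known to slow this programme. Genes that keep a constant level serve in such tissue as references for quantitative PCR. CPM is a share of all reads, and a gene can hold its CPM only in relation to the sum of the others.

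Library depth lay between 9.35 and 19.2 M counts. Wood formation was followed with 25 identifiers of monolignol enzymes and secondary-wall cellulose synthases. These designations are known from publications, not from the deposited table. Markers of phloem and green tissue needed product names and were not examined, so other tissue in the scrapes was not assessed. All 25 had counts in all 12 libraries, and as a share of each library they made up 1.71% to 3.87% (day 0), 0.556% to 1.01% (day 5) and 0.175% to 0.465% (day 7). In bulk tissue, fewer cells of a type and less RNA per cell cannot be told apart. Day 0 replicate 2 (3.87%) and day 7 replicate 2 (0.465%) held the largest wood share of their day. Both libraries are followed separately below.

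The deposited table carries identifiers without names, and 0 of the 41335 could be matched to an entry of RefSeq's gene list. The 18 are therefore described by identifier, and no function is assigned. By the chromosome number that the identifiers carry, they were spread over 12 chromosomes, with 3 each on chromosomes 2 and 18 and 2 each on 3 and 17. Chromosome 2 held 7.31% and chromosome 18 held 5.53% of the 561 abundant genes. No member had counts identical to those of another gene in all 12 libraries.

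The 18 genes lay at the low end of the abundant class. Their mean CPM ranged from 109 to 344 with a median of 169, against a median of 256 for the other 543 abundant genes. Of the 167 abundant genes with a mean under 200 CPM, 16 (9.58%) were members, and of the 294 genes from 200 to below 500 CPM, 2 (0.680%). None of the 100 genes at 500 CPM or above was a member. The level limit builds in part of this, since a gene that varies between libraries passes it only with a mean further above 100 CPM. The lowest mean was 109 CPM among the members and 124 CPM among the other 543. Steadiness itself was not limited to high levels: with the CPM minimum lowered to 50, 20, 10 or 1 in all libraries, the same band held 4.87%, 4.54%, 4.26% and 3.29% of the genes, against 3.21% at 100.

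**Figure D1:**
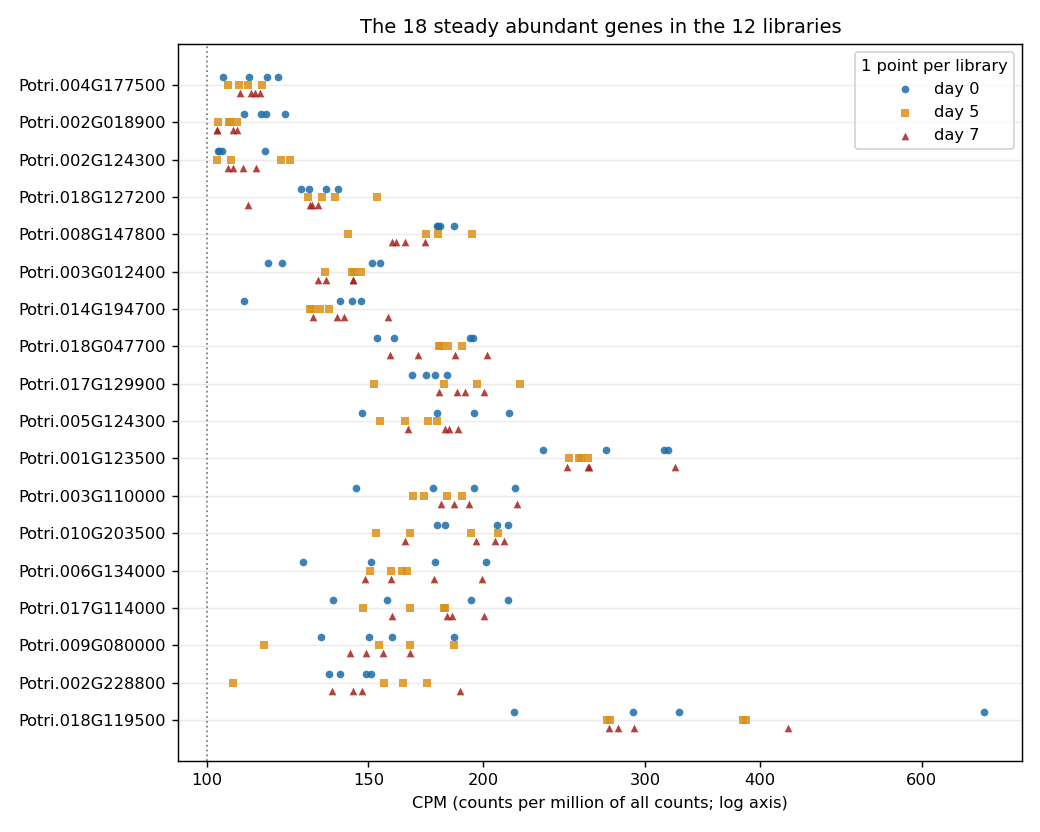
CPM of the 18 steady genes (rows, ordered from the smallest to the largest SD over the 12 libraries) on a log axis, with 1 point per library and the 3 days as colours and marker shapes; the dotted line marks 100 CPM. Most genes stay within a narrow stretch on all days, while Potri.018G119500 runs from 216 to 702 CPM.

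Among the 18, 3 genes stayed in a very narrow range in all 12 libraries. Potri.004G177500 had the smallest spread of all 561 abundant genes. It stood at 119, 104, 111 and 116 CPM in day 0 replicates 1 to 4, at 111, 115, 105 and 108 CPM on day 5, and at 112, 109, 113 and 114 CPM on day 7. The days overlapped throughout, and the highest library exceeded the lowest 1.15-fold. Its day means were 113 CPM ± 6.64 (SD, n = 4), 109.9 CPM ± 3.93 and 112 CPM ± 2.26.

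Potri.002G018900 ranked second by spread over the 12 libraries, with an SD of 0.0761 on the log2 scale, and had the smallest within-day SD of the 561, at 0.0439. Day 0 libraries held 115, 122, 109.8 and 116 CPM, day 5 libraries 106, 106, 108 and 103 CPM, and day 7 libraries 107, 103, 103 and 108 CPM. All 4 day 0 libraries lay above all 8 drought libraries, although the means differed by only -0.13 on day 5 and -0.14 on day 7 on the log2(CPM + 1) scale. Without day 0 replicate 2, its highest library, the highest over lowest ratio went from 1.19 to 1.13.

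Potri.002G124300 came next, at 116, 103, 104 and 103 CPM on day 0, 103, 106, 123 and 121 CPM on day 5, and 107, 109.6, 113 and 105 CPM on day 7. Its highest values were those of day 5 replicates 3 and 4, and the days overlapped. The highest library was 1.203 times the lowest.

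Counting error sets a floor to such spread. With 1073 to 2206 counts per library for Potri.004G177500 and Potri.002G018900, counting error on the log2 scale was 0.0367 and 0.0372. Their within-day SDs were 1.63 and 1.18 times that. For the 18 genes the median ratio of within-day SD to counting error was 4.93, and for the other 543 abundant genes it was 10.02, at a higher median level. Both were picked for a small spread, and over the 12 libraries their SDs were 0.0563 and 0.0761.

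The next group in order of spread held 10 genes at 109.9 to 323 CPM in single libraries, whose highest library exceeded the lowest by between 1.32-fold and 1.497-fold. Potri.018G127200 stood at 127, 135, 139 and 129 CPM on day 0, at 133, 138, 129 and 153 CPM on day 5, and at 130.2, 132, 111 and 129.5 CPM on day 7. A high day 5 replicate 4 and a low day 7 replicate 3 set its range. Potri.008G147800 had 178, 179, 186 and 179 CPM on day 0, 142, 178, 173 and 194 CPM on day 5, and 165, 161, 173 and 159 CPM on day 7. Its 4 day 7 libraries all lay below its 4 day 0 libraries, with day 5 spread across both. Potri.003G012400 split on day 0 into 152 and 154 CPM in replicates 1 and 4 and 117 and 121 CPM in replicates 2 and 3. On day 5 it had 134, 145, 147 and 144 CPM and on day 7 135, 144, 144 and 132 CPM, all between those day 0 pairs.

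Several members had their widest spread among watered plants. Potri.014G194700 had 147, 109.9, 139.8 and 144 CPM on day 0, 129.7, 136, 130.1 and 133 CPM on day 5, and 139, 131, 157 and 141 CPM on day 7. Day 0 replicate 2 was its lowest library and day 7 replicate 3 its highest. Potri.018G047700 had 195, 153, 159.9 and 193 CPM on day 0, 183, 179, 189.8 and 179.6 CPM on day 5, and 202, 158, 170.0 and 186 CPM on day 7, so that only day 5 was tight (SD 4.99 CPM, n = 4, against 21.9 and 19.1). The within-day SD on the log2 scale had a median over the 18 of 0.187 on day 0, 0.0996 on day 5 and 0.115 on day 7. Over the other 543 abundant genes these medians were 0.249, 0.180 and 0.230.

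The same day 0 spread appears in 3 further genes with day means near each other. Potri.005G124300 averaged 184 CPM ± 28.0 (SD, n = 4) on day 0, 168 CPM ± 10.6 on day 5 and 179.7 CPM ± 9.74 on day 7, and Potri.003G110000 averaged 183 CPM ± 30.3, 178 CPM ± 9.82 and 194 CPM ± 16.5. Potri.001G123500, the second most abundant member, had 318, 232, 272 and 314 CPM on day 0, 256, 259.9, 254 and 248 CPM on day 5, and 261, 323, 259.8 and 247 CPM on day 7. Its day 5 libraries agreed closely (SD 5.06 CPM), while day 7 replicate 2 matched the highest day 0 libraries.

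In the 2 genes of this group not yet described, day 5 had the largest SD. Potri.017G129900 had 183, 168, 173 and 177 CPM on day 0, 181, 197, 152 and 219 CPM on day 5, and 191, 187, 200.2 and 179 CPM on day 7. Its lowest and its highest library were both day 5 libraries. Potri.010G203500 ranged from 153 CPM in day 5 replicate 1 to 213 CPM in day 0 replicate 3, and its day means were 195 CPM ± 17.5 (SD, n = 4) on day 0, 180.4 CPM on day 5, from 153, 194, 208 and 167 CPM, and 194 CPM ± 20.8 on day 7.

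The remaining 5 genes had the largest spread over the 12 libraries. Potri.006G134000 and Potri.017G114000 were lowest in day 0 replicate 2, at 127 and 137 CPM, and reached 201 CPM and 213 CPM in other day 0 libraries. Potri.009G080000 had the most equal day means of all members, 157 CPM ± 22.1 (SD, n = 4), 156 CPM ± 29.7 and 154 CPM ± 10.1, with a largest difference of 0.025 on the log2(CPM + 1) scale. Its single libraries were far less equal, at 159, 133, 186 and 150.2 CPM on day 0, 116, 186, 167 and 154 CPM on day 5, and 149, 143, 167 and 156 CPM on day 7. Potri.002G228800 had 136, 139.8, 151 and 149 CPM on day 0, 156, 174, 164 and 107 CPM on day 5, and 147, 189, 137 and 144 CPM on day 7. Single low (day 5 replicate 4) and high (day 7 replicate 2) libraries set its 1.77-fold range.

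Potri.018G119500, the most abundant member at a mean of 344 CPM, met the rule with means that rest on very unequal libraries. It had 216, 702, 327 and 291 CPM on day 0, 384, 386, 275 and 273 CPM on day 5, and 280.1, 429, 292 and 274 CPM on day 7. Day 0 replicate 2 held 3.25 times the CPM of day 0 replicate 1, and day 7 replicate 2 stood above the rest of its day. Its SD over the 12 libraries, 0.44 on the log2 scale, ranked 300th of the 561, and without day 0 replicate 2 it was 0.29. In every library its count was nearly the same as that of Potri.018G122700, on the same chromosome by identifier, at 212, 699, 324 and 289 CPM on day 0. The ratio of the latter to the former lay between 0.972 and 0.999 in the 12 libraries. Whether the loci share reads was not tested, and the level of Potri.018G119500 is given as uncertain. Potri.018G122700 missed the band with a largest difference of 0.154.

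The band cut through a continuous range. Just inside it were Potri.001G123500, with a largest absolute difference of 0.148, Potri.018G119500 with 0.146 and Potri.018G127200 with 0.138. Just outside were Potri.018G122700 (0.154), Potri.013G064400 (0.160) and Potri.003G038700 (0.161). Over all 561 abundant genes the largest difference had a median of 0.74 and reached 4.50, and in 190 genes it exceeded 1, a 2-fold change. A further 19 genes with a mean of at least 100 CPM met the band but fell below 100 CPM in some library. The nearest was Potri.009G125000, with 99.2 CPM in its lowest library.

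**Figure D2:**
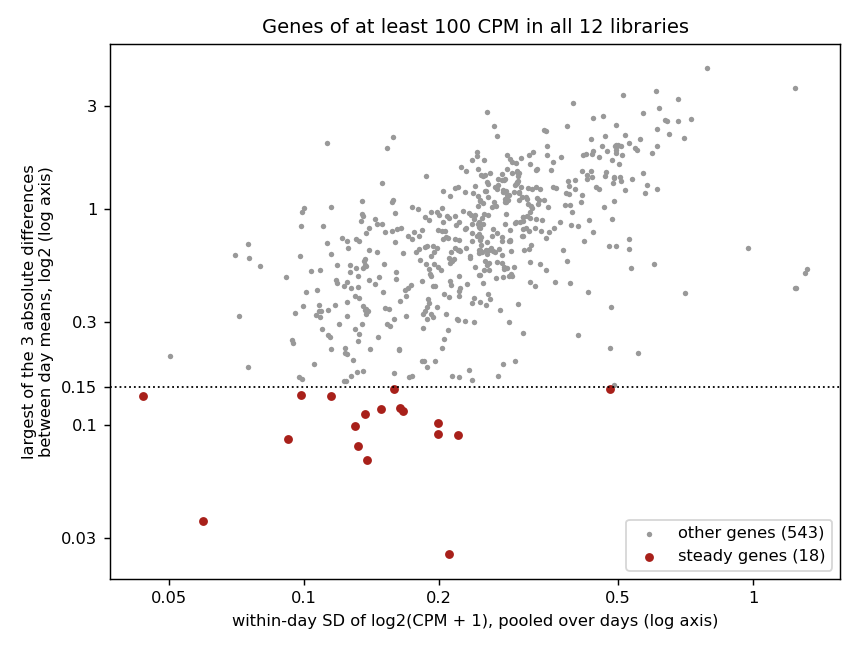
Each point is 1 of the 561 genes with at least 100 CPM in all 12 libraries, by its within-day SD (x) and its largest difference between day means (y), both on the log2 scale and drawn on log axes. The 18 steady genes (red) fill the area below the dotted line at 0.15, with within-day SDs from 0.0439 to 0.48.

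Selection on day means did not select on spread alone. Of the 10 abundant genes with the smallest SD over the 12 libraries, 6 were members, and of the first 50, 13. Among the non-members with small spread, Potri.004G163400 had a within-day SD of 0.0502 but day means that differed by up to 0.21, and Potri.005G242700 had 0.0750 with a largest difference of 0.19. Within-day SDs of the 18 had a median of 0.143, against 0.249 for the other 543. In 13 of the 18 members the highest library was under 1.5 times the lowest, and in 35 of the 543 others. The SD and this ratio over the 12 libraries include differences between days, which the rule limited in the members only. The within-day SD is not free of the rule either, as a noisy gene is less likely to have near-equal day means. Nothing is therefore read from these contrasts.

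How tightly the differences are known was described with limma intervals fitted over all 26943 genes that passed the low-count filter, among which were all 18 members. The 95% half-width on the log2(CPM + 1) scale ranged from 0.19 for Potri.002G018900 to 0.69 for Potri.018G119500, with a median of 0.27. All 54 intervals (18 genes in 3 comparisons) held 0, and none lay wholly within 0.15. For 17 of the 18 genes all 3 intervals lay within a 1.5-fold difference, and for all 18 within 2-fold. Of the 561 abundant genes this held for 65 (11.6%) and 214 (38.1%). Potri.004G177500 on day 7 against day 0, for example, had a difference of -0.0094 with an interval from -0.20 to 0.19. Since the rule used these same differences, the intervals are centred near 0 by the choice of the genes. Their width is limma's moderated one, which mixes a gene's own within-day spread with that usual for genes of its level. For Potri.004G177500 and Potri.002G018900, with within-day SDs of 0.0597 and 0.0439, the width is larger than their own spread alone would give. That all 54 intervals held 0 and none lay wholly within 0.15 therefore depends on this mixing.

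**Figure D3:**
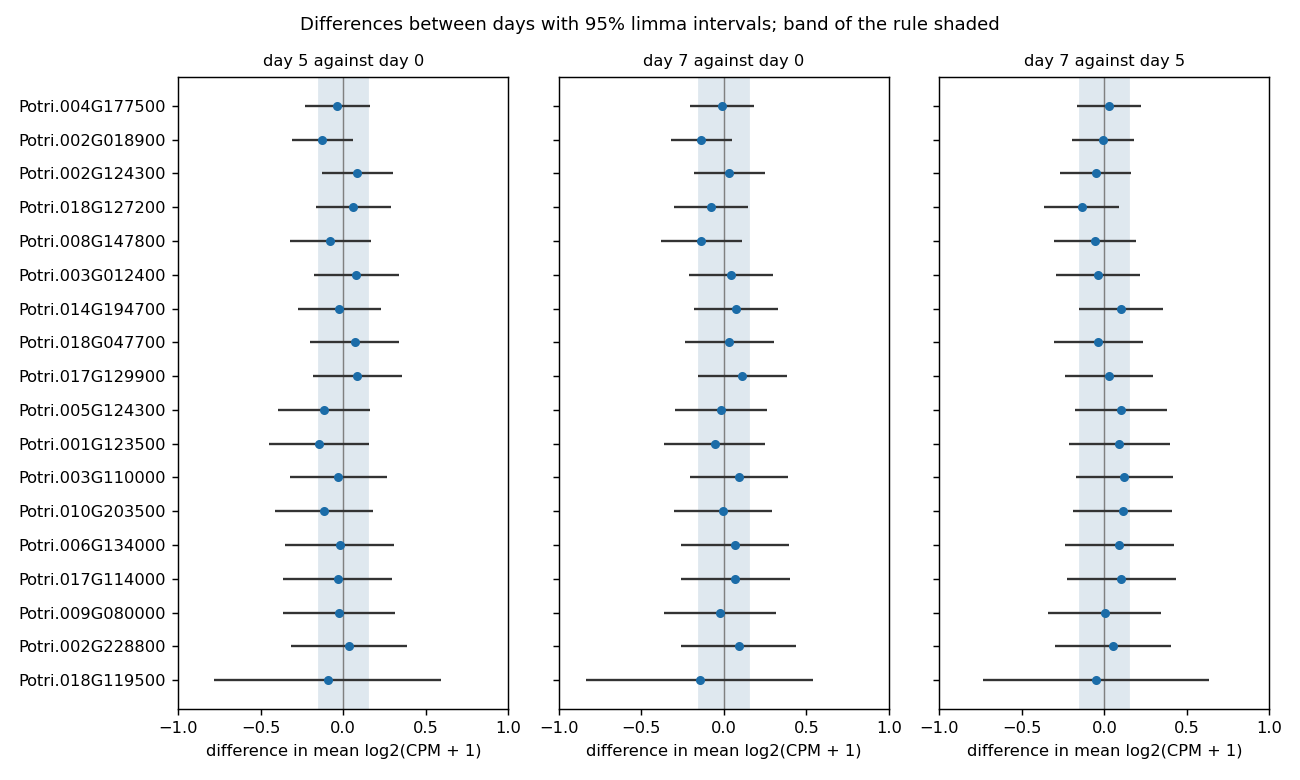
Differences between day means of log2(CPM + 1) for the 18 genes (points) with 95% limma intervals (lines) in the 3 comparisons; the shaded area is the band of 0.15 used to choose them. Every point lies in the band and every interval reaches beyond it, widest for Potri.018G119500.

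The 3 comparisons share libraries, and all were used by the rule, so nothing is read from the calls among the members. Against day 0, edgeR's quasi-likelihood test with Benjamini-Hochberg adjustment called 58.7% of the 26943 tested genes on day 5 and 51.1% on day 7, and 42.1% between day 7 and day 5. Among the 561 abundant genes these shares were 51.5%, 46.9% and 49.6%. Of the 18 members edgeR called 0 in each comparison. At an unadjusted p under 0.05 in edgeR the members numbered 0, 1 and 0. The abundant genes then numbered 320, 294 and 321 of 561, and all tested genes 17059, 15363 and 13769. DESeq2 called 0, 4 and 0 members, against 16610, 14735 and 12632 genes over the whole table. With limma-voom 0 members were called in each, against 15499, 13194 and 11177 genes. The 4 genes that DESeq2 called higher on day 7 than on day 0 were Potri.014G194700, Potri.004G177500, Potri.017G129900 and Potri.003G110000, with log2 fold changes of 0.22, 0.13, 0.25 and 0.23 after its own scaling. The smallest adjusted p among members in edgeR was also that of Potri.014G194700 on day 7 against day 0.

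Genes chosen for nearly equal day means will mostly overlap between days, so the following counts restate the choice and nothing is read from them. Day 5 and day 0 did not overlap in 1 member (Potri.002G018900), where 48.8% of abundant genes did not overlap. Day 7 and day 0 did not overlap in 2 (Potri.002G018900 and Potri.008G147800), against 42.2%, and day 7 and day 5 in 0, against 51.2%. Over all tested genes the shares were 54.0%, 45.1% and 38.7%. In the members concerned, the day 0 libraries were the higher ones in CPM on library totals. With TMM scaling the day 7 minus day 0 difference turned from -0.14 to 0.012 in both Potri.002G018900 and Potri.008G147800, while the day 5 minus day 0 difference of Potri.002G018900 was -0.047, against -0.13 on library totals.

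Taken as a block, the 18 genes held 0.314% ± 0.0057 (SD, n = 4) of all reads counted in the watered libraries, 0.303% ± 0.0110 on day 5 and 0.308% ± 0.0163 on day 7. The day 0 libraries held 0.317%, 0.316%, 0.305% and 0.318%, the day 5 libraries 0.297%, 0.319%, 0.296% and 0.299%, and the day 7 libraries 0.303%, 0.333%, 0.302% and 0.297%. Without day 7 replicate 2 the day 7 value was 0.300% ± 0.0034 (SD, n = 3). In day 0 replicate 2, Potri.018G119500 alone gave 11252 of the block's 50704 counts. In replicates 1, 3 and 4 it gave 2020 of 29612, 4434 of 41454 and 4094 of 44617. The small day 0 SD of the share includes this gene, and the block was not summed without it. Day 0 was the highest day by mean in 8 members, day 5 in 4 and day 7 in 6. Over the same libraries the 25 wood identifiers held 3.87% at most and 0.175% at least, and none of them was among the 18. The wood gene nearest to steady, Potri.008G136600, published as a caffeoyl-CoA methyltransferase, had a largest difference of 0.97.

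Single libraries deviated from the mean of their day by unequal amounts. In day 0 replicate 2, 11 of the 18 had the lowest CPM of day 0, 9 of these the lowest of all 12 libraries, and the median deviation from the day 0 mean was -0.15 on the log2 scale. In the same library 4 members lay above the day 0 mean, and 2 were at their day 0 maximum. The 561 abundant genes deviated there by a median of -0.24, more than the members. In the same library the wood identifiers made up 3.87%, where the rest of day 0 lay between 1.71% and 2.63%, and Potri.018G119500 stood at its highest. The part of that wood share in the low values of the members was not tested. Day 0 replicate 1 went the other way, with 9 members at their day 0 maximum and a median deviation of 0.10, against 0.15 over the 561. In day 7 replicate 2 the median deviation was 0.044, against 0.049 over the 561, with 8 members highest and 5 lowest of their day. Leaving out day 0 replicate 2 lowered the SD in 13 of the 18 genes, and its median went from 0.139 to 0.125. Without day 7 replicate 2 the median was 0.139.

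**Figure D4:**
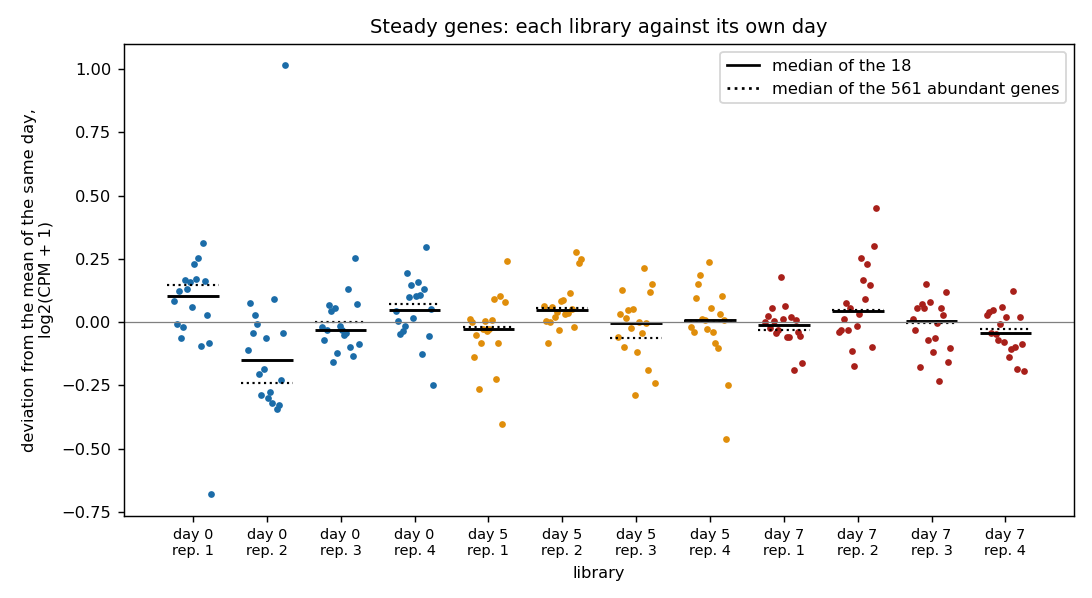
Deviation of each steady gene from its own day's mean (points, log2 scale) in the 12 libraries, with the median of the 18 (solid line) and of the 561 abundant genes (dotted line). Both medians are lowest in day 0 replicate 2, at -0.15 and -0.24, and the point near 1 there is Potri.018G119500.

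Whether a gene counts as steady depended on what it was measured against. CPM on library totals treats the sum of all reads as constant. Scaling by TMM (trimmed mean of M-values, from edgeR) raised all genes by 0.081 on day 5 and 0.15 on day 7 relative to day 0 on the log2 scale, RLE (relative log expression) by 0.095 and 0.14, and upper-quartile scaling by -0.00034 and 0.074. Under TMM, all 18 members had day 7 means above day 0, with a median difference of 0.16, and 9 of the 18 had so on library totals, with a median of 0.013. Medians of edgeR's log2 fold changes after TMM were 0.050, 0.16 and 0.091 for the members on day 5 against day 0, day 7 against day 0 and day 7 against day 5. They were 0.050, 0.098 and 0.093 for the 561 abundant genes, and -0.010, 0.034 and 0.0060 for all tested genes.

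The rule repeated on TMM-scaled CPM gave 19 genes, of which 6 were among the 18. With RLE it gave 22, sharing 7, and with upper-quartile scaling 16, sharing 8. Potri.004G177500, Potri.002G018900, Potri.008G147800, Potri.009G080000 and Potri.018G119500 met it under all 4 scalings. Under TMM, Potri.008G147800 had a largest difference of 0.012, against 0.14 on library totals, and Potri.002G018900 had 0.059. By contrast, 8 members met the rule under none of the other 3 scalings, and Potri.017G129900 reached 0.26 under TMM. Potri.002G124300 then also fell below the level limit, with a lowest value of 93.2 scaled CPM.

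**Figure D5:**
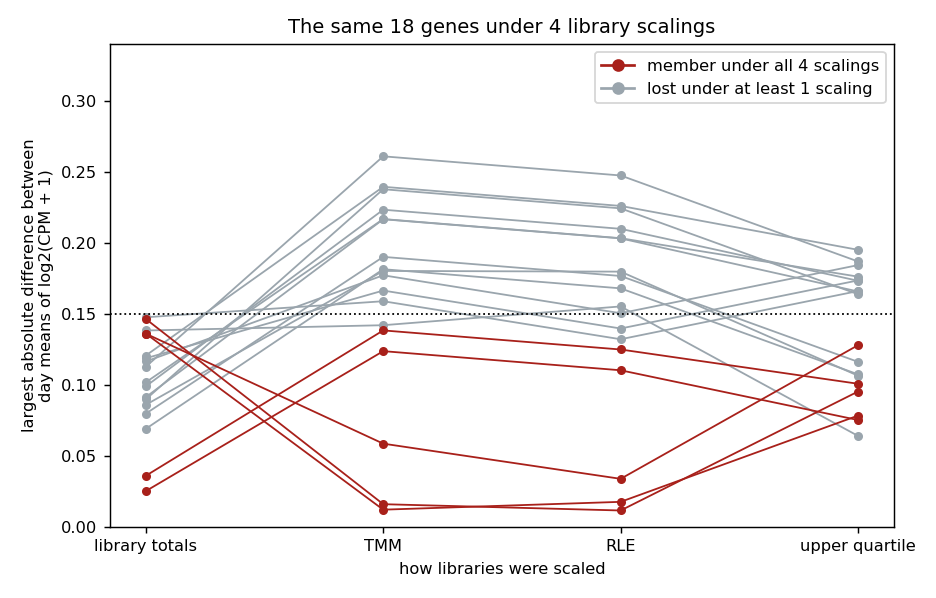
Largest absolute difference between day means of log2(CPM + 1) for the same 18 genes (1 line each) with libraries scaled by total, TMM, RLE or upper quartile; the dotted line is the band of 0.15. The 5 red genes stay below the line throughout, and the others rise to as much as 0.26 under TMM.

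Leaving out each library in turn gave another view of membership. The rule then found 18 to 24 genes and kept 14 to 17 of the 18. In all 12 repeats 6 genes were kept, namely Potri.002G124300, Potri.003G012400, Potri.004G177500, Potri.009G080000, Potri.014G194700 and Potri.018G047700. Potri.018G119500 was kept in 5 repeats only. Without day 0 replicate 2 there were 24 genes, 15 of them shared, and without day 7 replicate 2 also 24, with 16 shared. Without both there were 27, with 14 shared. Only Potri.004G177500 and Potri.009G080000 were kept in all 12 repeats and under all 4 scalings, the first with the narrowest range of single libraries and the second with a 1.61-fold range.

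Ratios between members need no scaling at all, because the library total cancels. Over the 153 pairs, the SD of the log2 count ratio across the 12 libraries ranged from 0.086 to 0.56 with a median of 0.18. Over all 157080 pairs of abundant genes the median was 0.63. Most of these hold genes that shift between days, which the rule kept out of the 18, so the lower value of the members follows from their choice. The tightest pair was Potri.003G110000 to Potri.006G134000, with ratios between 1.03 and 1.26 in single libraries and geometric means of 1.12, 1.12 and 1.14 on days 0, 5 and 7. Both genes had their lowest value in day 0 replicate 2 and were high in day 7 replicate 2, so their own CPM varied more than their ratio. Potri.001G123500 to Potri.003G110000 followed with an SD of 0.087 and geometric means of 1.55, 1.43 and 1.40. Potri.004G177500 had the lowest mean SD against the 17 other members, 0.157, and Potri.018G119500 the highest, 0.50.

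The gene most like each member was sought by the same SD among the 20938 genes with at least 10 counts in every library. For Potri.018G119500 it was Potri.018G122700 (SD 0.013), the pair already described. For the other 17 members the likest gene was at a lower level, from 11.8 to 90.8 mean CPM, and none of these was a member. Potri.003G012400 ran most closely with Potri.006G247000 (SD 0.042), whose count was 0.195 to 0.217 times its own in every library. Potri.006G265700, at a mean of 64.0 CPM, was the likest gene of Potri.003G110000, Potri.006G134000 and Potri.017G114000 alike, with SDs of 0.050, 0.077 and 0.088. The likest genes of these 17 members had largest differences between day means from 0.031 to 0.147, within the band. Likeness to a member favours this by construction, although Potri.018G122700, the closest of all, missed the band at 0.154.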

How the data were processed

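RNA-seq of stem differentiating xylem gave 12 libraries, 4 on each of days 0, 5 and 7 without water, grouped by their titles. The authors deposited 1 table of raw whole-number counts per gene identifier; TopHat is the tool named, per the submitters' processing notes. Which version, build, counter and strand setting were used is not given in the sources used here, and antisense or overlapping genes and near-identical copies may share reads. All 12 count columns were used, and 0 identifiers matched the RefSeq table (34621 genes), so the 22 product-name lists and the duplicate search by protein were not analysed here.

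The members and lists were chosen with earlier results of these data known. CPM and log2(CPM + 1) were computed on library totals. Calls came from edgeR 4.0.16 in R 4.3.3 (filterByExpr with minimum count 10, TMM, quasi-likelihood, Benjamini-Hochberg at 0.05, 1 mean per day, all 12 libraries). Intervals came from limma 3.58.1 with a mean trend on log2(CPM + 1). Both were also run on simulated counts, made nearly without the shifts between days that TMM gave here. Nothing about the intervals on library totals is drawn from that run. Counting error is the root mean of 1 over the count, divided by the natural log of 2, and covers counting error only. Within each day, every pair of libraries differed by more than read sampling gives (chi-square over its degrees of freedom, 12.7 to 97.3). DESeq2 1.42.0, limma-voom, other scalings, filters, bands and levels, a replicate block and left-out libraries were tried. Named members are the 10 of smallest SD, the 5 of largest SD, the 5 of highest mean, 3 on each side of the band and the 3 of smallest adjusted p; pair ratios, likest genes and other names were chosen after values were seen. Figures used matplotlib 3.10.9 in Python 3.11.15.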

Additional observations from a re-analysis of the deposited data

Results flagged for a closer look

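Each of the 18 genes and their summed share was examined on each day for a library that lay apart by Dixon's criterion, and 7 of 57 groups of 4 libraries were picked out; chance gives about 1 in 20 independent groups, and these share libraries. Potri.002G124300 had 116 CPM in day 0 replicate 1, against 103 to 104 in the others. Potri.008G147800 had 186 CPM in day 0 replicate 3, against 178 to 179. Potri.018G119500 had 429 CPM in day 7 replicate 2, against 274 to 292. Potri.018G127200 had 111 CPM in day 7 replicate 3, against 129.5 to 132.

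The share of the 18 genes in all counts was 0.305% in day 0 replicate 3 (0.316% to 0.318% in the others), 0.319% in day 5 replicate 2 (0.296% to 0.299%) and 0.333% in day 7 replicate 2 (0.297% to 0.303%). In day 7 replicate 2, Potri.018G119500, which is part of the summed share, stood at 429 CPM against 274 to 292. In that library 8 of the 18 had their highest CPM of the day and 5 their lowest. The wood identifiers held 0.465% of counts there and 0.175% to 0.233% in the other day 7 libraries. None of them is among the 18, so they add nothing to the summed share. A link between the wood share and the levels of the 18 was not tested.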

How the results depend on the processing

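The number of steady genes, 18, went to 98 with a CPM minimum of 50, 2 with a minimum of 200, 8 with a band of 0.10 and 42 with a band of 0.20. It was 18 with pseudocounts of 0.5 and 5, 27 with medians in place of means, 16 to 22 under other scalings and 18 to 24 with a library left out. Leaving out both day 0 replicate 2 and day 7 replicate 2, chosen after seeing the data, gave 27. Genes with all 3 intervals within 2-fold numbered 17 or 18 in every alternative run. Counts of called genes over the whole table stayed within 1.5 times the main count in all 21 alternatives of each comparison: 14471 to 16724 on day 5 against day 0, 12233 to 14735 on day 7 against day 0 and 9098 to 12632 on day 7 against day 5 (leaving out a library, 14471 to 16515, 12241 to 14007 and 9098 to 11755). The members' median log2 fold change on day 7 against day 0 was 0.16 with TMM and 0.013 with library totals only. With the replicate block, 15206, 13095 and 10757 genes were called, and 0 members; libraries sharing a number correlated at -0.21 to 0.51 in their deviations and 3 of 12 correlated best with their own number, so the numbers were not taken to pair libraries.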

Other observations

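Potri.018G061300 and Potri.T020300, abundant genes just outside the band with largest differences of 0.168 and 0.164, had nearly equal levels in every library, for example 131 and 132 CPM in day 0 replicate 1 and 148 and 146 CPM in day 5 replicate 4. They ranked 8th and 9th by SD over the 12 libraries, and whether they share reads was not tested.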
